A study of Mus musculus with 6 samples.

Results

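Expression of 10 genes of the death receptor, caspase-8 and necroptosis pathway was examined, chosen as a fixed list of symbols out of 55487 genes in the deposited tables. They were the receptors Fas, Tnfrsf10b, Tnfrsf1a and Tnfrsf1b, the caspase-8 genes Casp8, Cflar and Bid, and the necroptosis genes Ripk1, Ripk3 and Mlkl. RNA came from chondrocytes of C57B/6 mouse knee cartilage, the cells that make and keep up cartilage matrix, and was sequenced as stranded mRNA libraries. In 3 libraries (M-LPS-EV) the chondrocytes had been given extracellular vesicles, which are membrane-bound particles that cells shed, from macrophages stimulated with the bacterial outer membrane component LPS. In the other 3 libraries (M-EV) the vesicles are labelled only as derived from macrophages. Both groups received 10 µg/ml of vesicle protein and were kept for 24 h. Chondrocytes without vesicles were not analysed here, so each difference is between vesicle types. Whether replicates stand for separate cultures or animals is not labelled. Each p-value therefore reflects the spread among these libraries alone, and that spread may be technical.

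Death receptors sit in the plasma membrane and carry a cytoplasmic death domain. After ligand binding, this domain can gather the adaptor FADD and procaspase-8, which activates itself there and starts apoptosis, either directly or by cutting BID, which acts on mitochondria. c-FLIP, the product of Cflar, resembles caspase-8 and governs its activation. Where caspase-8 is held back, RIPK1 and RIPK3 can assemble into a complex that phosphorylates MLKL, which then breaches the plasma membrane in necroptosis. In cartilage, Fas and TNF receptor signalling has been studied as a route to chondrocyte loss and matrix breakdown in arthritis. Transcript levels show neither cleavage of caspase-8 or BID nor phosphorylation of MLKL, nor cell death.

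Estimated read counts totalled 20239626 to 23539911 per library with M-LPS-EV and 22274687 to 25712667 with M-EV. Pairs of libraries within a group gave a chi-square over its degrees of freedom of 1.66 to 2.77, where sampling noise alone gives about 1, and pairs across groups gave 26.18 to 33.83. Chondrocyte markers (Col2a1, Acan, Sox9, Matn1, Col9a1, Col11a2 and Hapln1) summed to 38800 to 39800 TPM (a length-scaled abundance that sums to the same total in every library) with M-LPS-EV and to 46800 to 47300 TPM with M-EV. In the M-LPS-EV libraries 6 of these 7 were called lower. Endothelial markers summed to less than 1 TPM in every library, and the T cell marker Cd3e had 0 counts in all of them. Osteoblast markers summed to 33.1 to 38.6 TPM with M-LPS-EV and to 36.0 to 41.7 TPM with M-EV. Of these, Ibsp was called higher, Sp7 lower and Bglap was not called.

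Most of the 10 genes were higher with M-LPS-EV, and 3 differed by a large factor. Fas was about 5-fold higher and Bid and Mlkl between 2- and 3-fold higher, while the remaining differences were small. All 10 genes passed the count filter. Mlkl did so only with the help of its M-LPS-EV libraries, having 9 counts in M-EV replicate 3. The 10 genes were also chosen with earlier results of these data known. For both reasons the counts below are a description. Of the 10, 8 rose at an adjusted p below 0.05 (two-sided quasi-likelihood test of edgeR, adjusted by Benjamini-Hochberg over 14604 genes), none fell, and Casp8 and Ripk1 did not pass the test. Among all tested genes 31.6% were called, made up of 16.4% higher and 15.2% lower. Values in CPM (counts scaled to a common library size) did not overlap between the groups for any of the 10 genes, a lack of overlap shared by 42.2% of all tested genes (21.5% higher). Only Fas, Bid and Mlkl rose by at least 1 on the log2 scale, which 2.13% of all tested genes did, and 5 rose by less than 0.5. The median log2 fold change of M-LPS-EV over M-EV was 0.34 for the 10 genes and 0.003 for all tested genes. On values that take transcript length into account only Fas, Bid, Tnfrsf1a and Tnfrsf1b were called, as described below. In bulk RNA, a change in the share of cells that hold a transcript and a change in its amount per cell cannot be told apart.

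**Figure D1:**
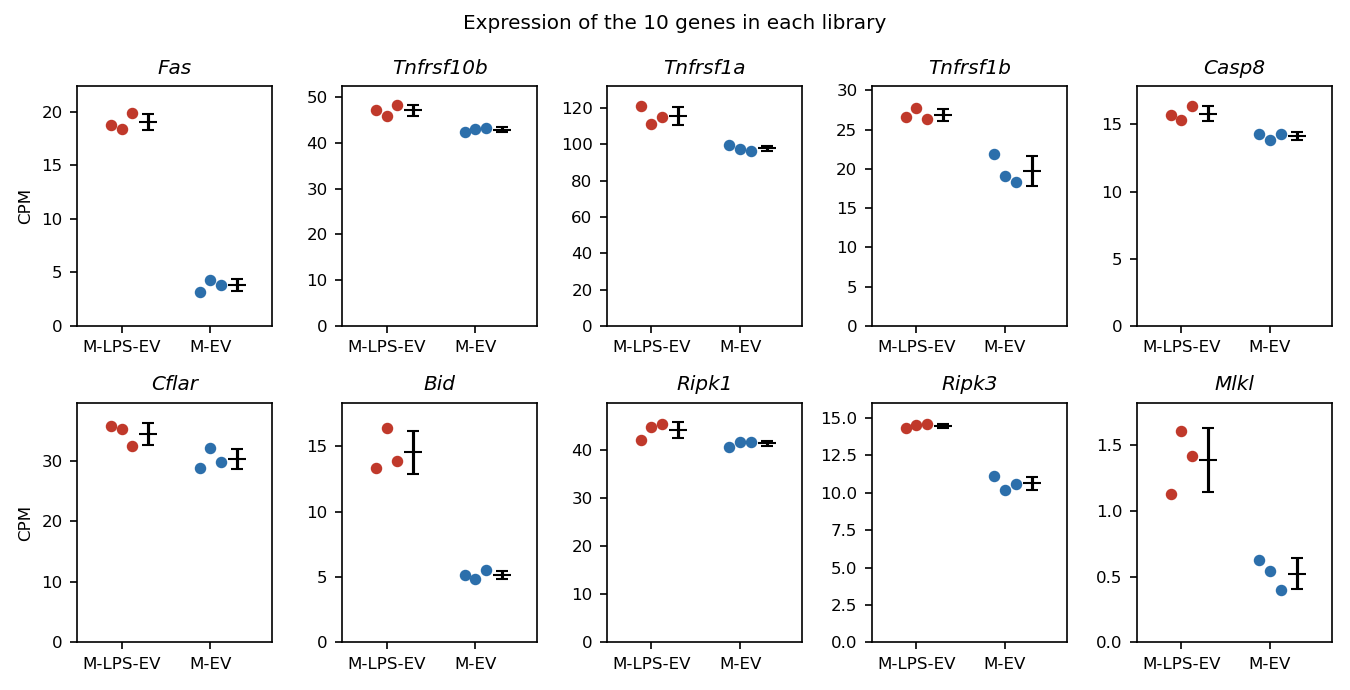
CPM (y axis, from 0, TMM-scaled) of each of the 10 genes in the 3 M-LPS-EV libraries (red) and the 3 M-EV libraries (blue); black marks are group means with SD. The red points lie above the blue ones in every panel, by a wide gap for Fas, Bid and Mlkl and by a narrow one for Casp8, Cflar and Ripk1.

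Among the receptors, Fas differed most. Fas (ENSMUSG00000024778, protein-coding, chromosome 19 from 34290666 to 34327772 in mm10) encodes the receptor of Fas ligand and is the classical death receptor. It had 18.8, 18.4 and 19.9 CPM in the M-LPS-EV libraries, against 3.18, 4.31 and 3.86 CPM in the M-EV libraries. The lowest M-LPS-EV library was thus far above the highest M-EV library. The log2 fold change of Fas was 2.34 (SE 0.10, edgeR adjusted p = 4.5e-16), a 5.06-fold difference. By log2 fold change it ranked 70 among the 14604 tested genes. Tnfrsf10b (ENSMUSG00000022074, chromosome 14 from 69767472 to 69784411), the mouse receptor of the death ligand TRAIL, had 47.1, 45.9 and 48.2 CPM with M-LPS-EV and 42.3, 43.0 and 43.3 CPM with M-EV. Its 1.1-fold difference passed the test (log2 fold change 0.13, SE 0.04, adjusted p = 0.012 in edgeR), and no longer did so once M-EV replicate 1 was left out (0.12, adjusted p = 0.056).

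The TNF receptors rose by small and unequal amounts. Tnfrsf1a (ENSMUSG00000030341, chromosome 6 from 125349362 to 125362484) encodes TNFR1, the widely expressed TNF receptor with a death domain. Its level was 121, 111 and 115 CPM with M-LPS-EV, against 99.3, 97.3 and 96.4 CPM with M-EV (log2 fold change 0.24, SE 0.03, edgeR adjusted p = 3.2e-06). Tnfrsf1b (ENSMUSG00000028599, chromosome 4 from 145213463 to 145246870) encodes TNFR2, which has no death domain and signals through TRAF adaptors. It stood at 26.6, 27.8 and 26.3 CPM with M-LPS-EV and at 21.9, 19.1 and 18.3 CPM with M-EV (log2 fold change 0.44, SE 0.06, edgeR adjusted p = 4.1e-06). Neither gene overlapped between groups. Per transcript length, the ratio of Tnfrsf1b to Tnfrsf1a was 0.123, 0.138 and 0.122 in the M-LPS-EV libraries, against 0.119, 0.104 and 0.101 in the M-EV libraries. The ratios did not overlap. Their log2 difference of 0.24 had p = 0.1 in the exact permutation test (two-sided, n = 3 per group), the smallest p this design allows. Ratios of the 2 genes' counts overlapped between groups (exact permutation p = 0.2). TNFR1 transcripts outnumbered TNFR2 transcripts several-fold in every library.

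Promoter sequence was set beside these differences for 9 of the 10 genes, using the 250 bases before each RefSeq transcription start in GRCm38.p6, the assembly also called mm10. Tnfrsf10b had no entry. RefSeq starts need not match the gene bounds given in this report. The windows of Tnfrsf1a and Casp8 (chr1:58802252-58802501) and the downstream window of Ripk1 lay inside those bounds. Those of Bid and Ripk3 reached slightly into them. For Tnfrsf1a and Casp8 the sequence before the outer gene bound was therefore not searched. Each window was searched on both strands for TTCNNNGAA (the STAT-binding GAS motif), an IRF motif (2 copies of GAAA with 2 bases between them), TGANTCA (an AP-1 motif) and the consensus NF-kB motif. A palindromic match was counted once, and matches of different motifs could overlap. The receptor promoters are shown because they hold most of the matches, and Bid because it rose strongly and holds none. They are chr19:34290409-34290658 on the plus strand for Fas, chr6:125349473-125349722 on the plus strand for Tnfrsf1a, chr4:145246871-145247120 on the minus strand for Tnfrsf1b and chr6:120916825-120917074 on the minus strand for Bid, each written 5′ to 3′ with matched bases in capitals.
Fas: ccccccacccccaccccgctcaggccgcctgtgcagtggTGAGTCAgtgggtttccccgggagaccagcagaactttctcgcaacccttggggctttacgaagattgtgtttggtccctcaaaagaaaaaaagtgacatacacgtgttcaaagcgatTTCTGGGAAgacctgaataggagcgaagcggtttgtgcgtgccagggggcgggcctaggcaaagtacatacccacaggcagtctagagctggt
Tnfrsf1a: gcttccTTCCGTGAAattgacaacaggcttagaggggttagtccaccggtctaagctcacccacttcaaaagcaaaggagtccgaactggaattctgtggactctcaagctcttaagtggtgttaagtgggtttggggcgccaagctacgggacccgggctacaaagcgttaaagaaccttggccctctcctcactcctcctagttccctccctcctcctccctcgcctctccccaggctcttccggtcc
Tnfrsf1b: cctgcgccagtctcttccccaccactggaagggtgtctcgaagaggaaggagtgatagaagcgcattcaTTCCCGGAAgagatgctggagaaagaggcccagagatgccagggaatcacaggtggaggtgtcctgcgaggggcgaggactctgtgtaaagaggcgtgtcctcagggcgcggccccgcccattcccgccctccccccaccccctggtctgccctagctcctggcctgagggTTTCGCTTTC
Bid: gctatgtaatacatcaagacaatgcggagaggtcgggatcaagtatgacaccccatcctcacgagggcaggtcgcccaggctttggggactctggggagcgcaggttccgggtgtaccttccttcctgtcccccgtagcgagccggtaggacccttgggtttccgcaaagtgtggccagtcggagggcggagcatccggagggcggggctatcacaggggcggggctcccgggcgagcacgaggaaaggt

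In Fas, the AP-1 match lay at -211 to -205 and the GAS match at -93 to -85 from the start. The GAS match of Tnfrsf1a lay at -244 to -236 from its RefSeq start, which is inside the gene bounds given above. Tnfrsf1b held a GAS match at -181 to -173 and an IRF match, on the other strand, at -10 to -1. Ripk1, which was not called, has 2 annotated starts, of which the downstream window held 2 GAS matches. No other match was found in the windows of the 9 genes. Over all 32851 promoter windows of the same length, 7.02% held a GAS match, 2.98% an IRF match, 6.75% an AP-1 match and 7.25% an NF-kB match. A match describes letters in the window and does not show binding, and the absence of one concerns this window alone.

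Of the genes around caspase-8, Bid rose strongly, Cflar rose slightly and Casp8 was not called. Casp8 (ENSMUSG00000026029, chromosome 1 from 58795374 to 58847503) encodes the initiator caspase of the pathway. It had 15.7, 15.3 and 16.4 CPM with M-LPS-EV and 14.3, 13.8 and 14.3 CPM with M-EV. These values did not overlap, but the log2 fold change of 0.16 missed the threshold (SE 0.07, 95% interval from 0.02 to 0.29, edgeR adjusted p = 0.085). Cflar (ENSMUSG00000026031, chromosome 1 from 58711508 to 58758884, upstream of Casp8 on the same strand) had 35.8, 35.3 and 32.4 CPM with M-LPS-EV, against 28.8, 32.1 and 29.9 CPM with M-EV. Its groups came close to each other, and its log2 fold change was 0.19 (SE 0.05, edgeR adjusted p = 0.0052). Bid (ENSMUSG00000004446, chromosome 6 from 120891930 to 120916853) encodes the BH3-only protein that caspase-8 cuts to reach mitochondria. It had 13.3, 16.4 and 13.9 CPM in the M-LPS-EV libraries and 5.14, 4.85 and 5.50 CPM in the M-EV libraries, with no overlap. The fold change of Bid was 2.81 (log2 fold change 1.49, SE 0.10, edgeR adjusted p = 7.8e-12). Bcl2l13 overlaps Bid on the opposite strand and Serpinb6a overlaps Ripk1 likewise. The library kit keeps strand, but the strand setting of the counting is not given in the sources used here, so reads of such pairs may be mixed. Bcl2l13 had 1087, 1258 and 977 counts with M-LPS-EV, against 1148, 1096 and 1160 counts with M-EV.

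The balance of c-FLIP to caspase-8 transcripts was not shown to differ. The ratio of Cflar to Casp8 in TPM was 1.31, 1.19 and 1.04 with M-LPS-EV, against 0.926, 1.28 and 1.37 with M-EV. The groups overlapped fully (log2 difference -0.0031, exact permutation test, two-sided, n = 3 per group, p = 1). The ratio varied more within the M-EV group than between the group means, which were 1.18 ± 0.138 with M-LPS-EV and 1.19 ± 0.236 with M-EV (SD).

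In the necroptosis arm, Ripk3 and Mlkl rose and Ripk1 was not called. Ripk1 (ENSMUSG00000021408, chromosome 13 from 34002363 to 34037147) encodes a death domain kinase that joins TNFR1 signalling to both death routes. It had 42.2, 44.9 and 45.5 CPM with M-LPS-EV, against 40.7, 41.8 and 41.7 CPM with M-EV. The gap between the groups was smaller than the range of the M-LPS-EV libraries (log2 fold change 0.10, SE 0.04, 95% interval from 0.01 to 0.18, edgeR adjusted p = 0.091). Leaving out M-LPS-EV replicate 1 brought Ripk1 past the threshold (0.13, edgeR adjusted p = 0.045). Ripk3 (ENSMUSG00000022221, chromosome 14 from 55784995 to 55788865) encodes the kinase of MLKL. It had 14.3, 14.5 and 14.6 CPM in the M-LPS-EV libraries, which lay close together, against 11.1, 10.2 and 10.6 CPM in the M-EV libraries. Its log2 fold change was 0.44 (SE 0.08, edgeR adjusted p = 5.1e-05). Mlkl (ENSMUSG00000012519, chromosome 8 from 111311797 to 111338177), which encodes the membrane-breaching effector, was the scarcest of the 10. It had 24, 38 and 29 counts with M-LPS-EV and 16, 12 and 9 counts with M-EV, or 1.13, 1.61 and 1.42 CPM against 0.628, 0.544 and 0.399 CPM. The groups did not overlap in CPM, and the log2 fold change was 1.39 with a wide interval (SE 0.30, 0.80 to 1.98, edgeR adjusted p = 0.00079). Mlkl passed the count filter only with the help of its M-LPS-EV libraries, so its call is a description. Neither Ripk3 nor Mlkl was called on length-scaled values, as described below.

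Several of these genes, among them Tnfrsf1b, Ripk3 and Mlkl, are known to be expressed by leukocytes as well. The 11 markers of macrophages and other leukocytes summed to 45.0 to 52.7 TPM in the M-LPS-EV libraries and to 38.2 to 41.0 TPM in the M-EV libraries, without overlap. Most of each sum was Lyz2, at 31.3, 37.4 and 35.0 TPM with M-LPS-EV, against 23.1, 24.2 and 25.7 TPM with M-EV. The rest of the sum overlapped between the groups. Of the 7 that could be tested, Adgre1, Itgam and Lyz2 rose and 4 were not called. Adgre1 had 49, 51 and 38 counts with M-LPS-EV, against 23, 16 and 13 counts with M-EV, and Lyz2 rose by 0.52 on the log2 scale (SE 0.07). The pan-leukocyte marker Ptprc had 4, 10 and 6 counts with M-LPS-EV and 8, 4 and 11 counts with M-EV. The macrophage complement gene C1qa had 1, 0 and 1 counts with M-LPS-EV, against 8, 14 and 15 counts with M-EV. The counts of C1qa and Adgre1 thus lay in opposite directions, and the part of these markers in the differences of the 10 genes was not tested. Fibroblast markers summed to 959 to 964 TPM with M-LPS-EV and to 822 to 832 TPM with M-EV, where Dcn rose and Col1a1, Col1a2 and Thy1 fell. Their part was not tested either.

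Levels per transcript length differed widely among the 10 genes. With M-LPS-EV, Tnfrsf1a stood highest at 104 ± 4.20 TPM and Mlkl lowest at 1.55 ± 0.350 TPM, and with M-EV the same genes stood at 88.6 ± 0.598 TPM and 0.720 ± 0.423 TPM (SD, n = 3). The order with M-LPS-EV was Tnfrsf1a, Fas, Tnfrsf10b, Ripk1, Ripk3, Cflar, Casp8, Tnfrsf1b, Bid and Mlkl. In this order the neighbours Fas and Tnfrsf10b, Ripk1 and Ripk3, Ripk3 and Cflar, and Tnfrsf1b and Bid overlapped over the 3 libraries. Genes farther apart could overlap too, as Bid did with Casp8. The order with M-EV was Tnfrsf1a, Tnfrsf10b, Ripk1, Ripk3, Cflar, Casp8, Tnfrsf1b, Fas, Bid and Mlkl. There the neighbours Ripk3 and Cflar, Cflar and Casp8, and Fas and Bid overlapped. Fas moved most in the order, to the second place with M-LPS-EV at 28.1 ± 1.72 TPM, against the eighth place with M-EV at 5.51 ± 1.05 TPM. Bid reached 13.0 ± 1.85 TPM with M-LPS-EV, a level beside that of Tnfrsf1b at 13.2 ± 0.622 TPM, against 4.74 ± 0.573 TPM with M-EV.

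**Figure D2:**
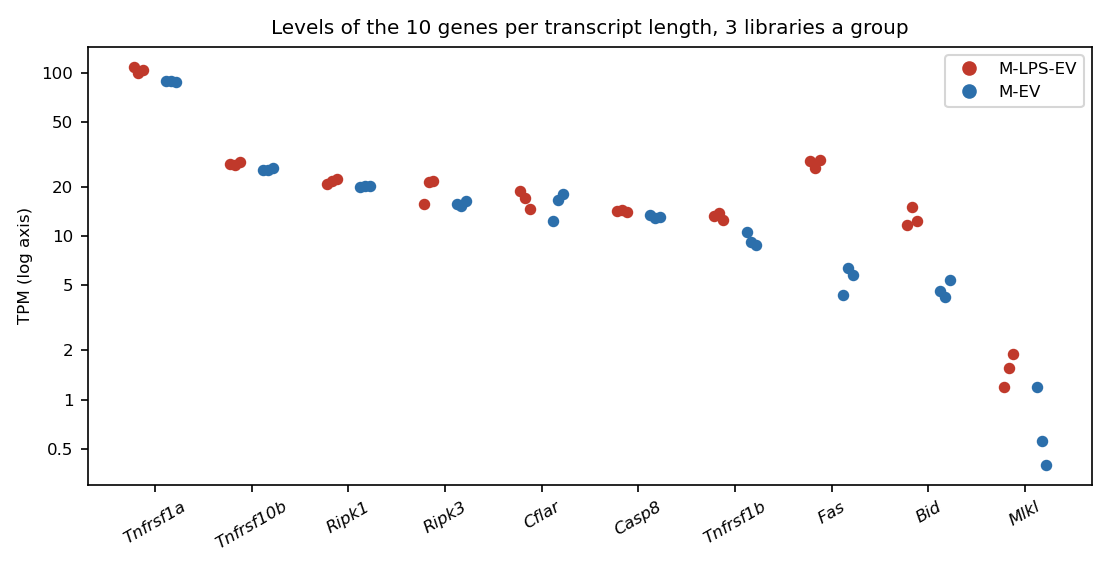
TPM (y axis, log scale) of the 10 genes in each of the 3 M-LPS-EV (red) and 3 M-EV (blue) libraries, ordered by the M-EV mean. Tnfrsf1a lies at about 100 TPM and Mlkl near 1 TPM, and the wide gaps between colours are those of Fas and Bid.

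Some of the smaller calls depended on whether counts or length-scaled values were tested. With RSEM's effective gene lengths as an offset in edgeR, 4 of the 10 genes were called higher, namely Fas, Bid, Tnfrsf1a and Tnfrsf1b, where 19.6% of all tested genes were called and 10.5% were higher. The same 4 were called by limma-trend on log2(TPM + 1), where 18% of all tested genes were called and 8.76% were higher, and on log2(TPM + 0.1), where 17.9% were called and 8.79% were higher. Tnfrsf10b then had an offset log2 fold change of 0.13 (edgeR adjusted p = 0.085), Cflar 0.12 (adjusted p = 0.57), Ripk3 0.31 (adjusted p = 0.12) and Mlkl 1.20 (adjusted p = 0.059). TPM values overlapped between the groups for Cflar, Ripk3 and Mlkl, and did not for the other 7 genes, against 35.9% of all tested genes without overlap (16.9% higher).

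The libraries behind these overlaps can be named. Ripk3 had 15.7, 21.5 and 21.6 TPM with M-LPS-EV, against 15.8, 15.3 and 16.5 TPM with M-EV. Only M-LPS-EV replicate 1 lay within the M-EV range. In that library the effective length of Ripk3 was 1580 bases, against 1164 and 1170 bases in the other M-LPS-EV libraries and 1233, 1154 and 1125 bases in the M-EV libraries. For Mlkl it was M-EV replicate 1 that overlapped, with 1.20 TPM beside 1.19, 1.56 and 1.89 TPM in the M-LPS-EV libraries and 0.56 and 0.40 TPM in the other M-EV libraries. Its effective length there was 918 bases, against 1299 to 1782 bases in the 5 other libraries. The effective length of Cflar ranged from 3323 to 3837 bases with M-LPS-EV and from 2914 to 4050 bases with M-EV, and its TPM from 14.6 to 18.7 and from 12.4 to 18.0 in the same groups. Effective gene length is a mean over transcripts weighted by their estimated shares, so it moves with how RSEM divides reads between long and short transcripts.

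**Figure D3:**
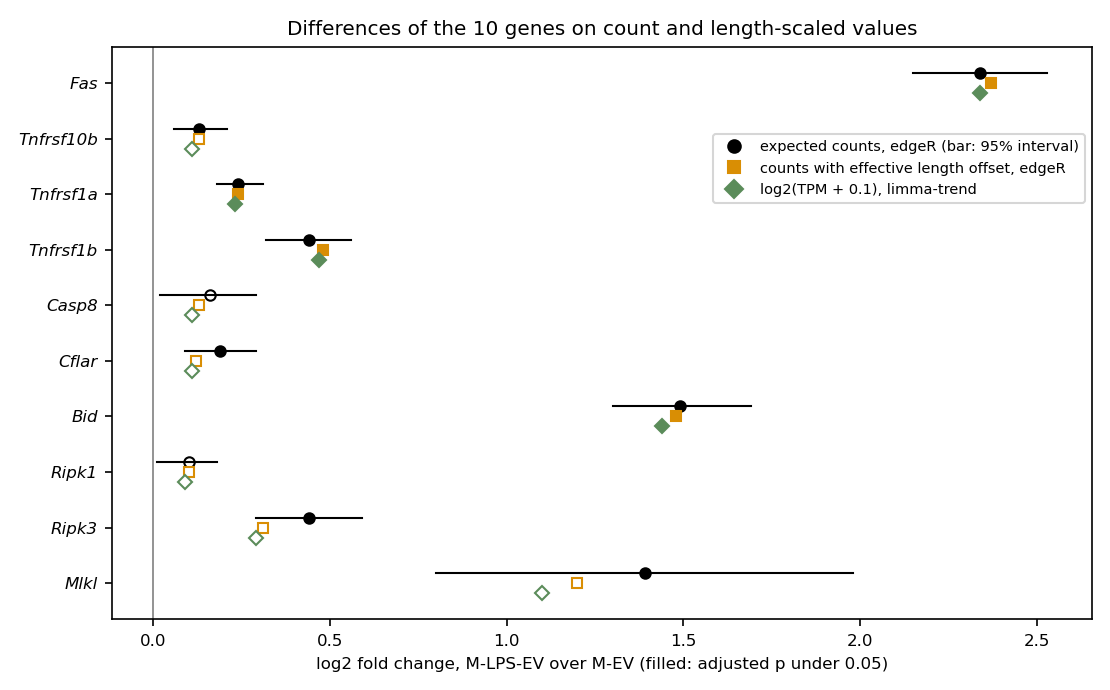
Log2 fold change of M-LPS-EV over M-EV (x axis) for each of the 10 genes from counts in edgeR (black circles with bars for the 95% interval), counts with an effective length offset (squares) and log2(TPM + 0.1) in limma-trend (diamonds); filled symbols have an adjusted p under 0.05. All symbols lie right of 0, and 8 circles but only 4 squares and 4 diamonds are filled.

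At the level of transcripts, the main coding forms of Fas, Bid, Ripk3 and both TNF receptors rose. The 10 genes have 56 transcripts in the tables, of which 8 had 0 counts in every library and 24 could be tested. Of these 24, 5 rose and none fell in edgeR, with p-values adjusted over 37245 transcripts, of which 4.45% were called and 2.45% were higher. That background rests on all 6 libraries, since 1658 transcripts were called with them and 855 to 996 with any 1 left out. The 5 were Fas-201, Bid-201, Ripk3-201, Tnfrsf1a-201 and Tnfrsf1b-201. Fas-201, with 9 exons and 327 codons, held 84.3 ± 6.70% of Fas abundance with M-LPS-EV and 89.2 ± 9.39% with M-EV (SD, n = 3). It had 22.3, 23.7 and 24.8 TPM in the M-LPS-EV libraries, against 4.35, 5.36 and 4.84 TPM in the M-EV libraries (log2 fold change 2.29, SE 0.12, edgeR adjusted p = 0.00029). Bid-201, with 195 codons, had 11.6, 13.4 and 12.03 TPM with M-LPS-EV and 2.97, 4.25 and 4.77 TPM with M-EV (log2 fold change 1.64, SE 0.19, edgeR adjusted p = 0.0076). Neither transcript overlapped between groups.

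Ripk3-201, with 486 codons, had 13.6, 13.6 and 12.9 TPM with M-LPS-EV, against 8.69, 9.53 and 9.29 TPM with M-EV, without overlap (log2 fold change 0.56, SE 0.09, adjusted p = 0.021 in edgeR). Ripk3-206, a retained-intron transcript of 478 bases, rested on 1.28, 16.8 and 12.8 counts with M-LPS-EV and 0, 16.3 and 3.63 counts with M-EV. It came to 0.38, 4.40 and 3.95 TPM with M-LPS-EV and 0, 4.69 and 1.02 TPM with M-EV. It thus varied widely within both groups, and its low M-LPS-EV value fell in the library with the lowest gene-level TPM of that group. With any 1 library left out the Ripk3-201 call ended (edgeR adjusted p of 0.068 to 0.093). Tnfrsf1a-201 stayed called only without M-LPS-EV replicate 2, and Tnfrsf1b-201 only without M-EV replicate 1 (adjusted p of 0.039 to 0.10 and 0.029 to 0.15). Fas-201 and Bid-201 were called in all of these fits.

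The estimated shares of Casp8-202 and Casp8-203 varied more within groups than their means differed between them. Casp8-201 and Casp8-202 each have 480 codons and Casp8-203 has 500. Casp8-201 held 45.9%, 38.3% and 51.05% of Casp8 abundance with M-LPS-EV, against 39.3%, 40.6% and 39.9% with M-EV. Casp8-203 held 37.0%, 48.4% and 15.9% with M-LPS-EV and 39.7%, 44.8% and 26.3% with M-EV. In both groups replicate 3 had the lowest share of this form. None of the 3 was called, with log2 fold changes of 0.30, -0.0087 and 0.0047 for Casp8-201, Casp8-202 and Casp8-203 (edgeR adjusted p = 0.38, 1 and 1). Cflar-205, with 481 codons, held 48.6 ± 5.09% of Cflar abundance with M-LPS-EV and 46.4 ± 7.97% with M-EV and was not called (log2 fold change 0.20, SE 0.06, edgeR adjusted p = 0.17). Cflar-204, a shorter coding form of 215 codons, held 2.48 ± 1.59% with M-LPS-EV and 4.35 ± 1.99% with M-EV. The short form was thus a minor one in both groups, and its log2 fold change of -0.72 was not called (SE 0.61, edgeR adjusted p = 0.71). The non-coding Cflar-207, Cflar-208, Cflar-210 and Cflar-212, of 378 to 1100 bases, made up most of the rest of this length-scaled abundance. They rested on few reads, with summed counts of 39.4, 7.97, 34.8 and 40.6 with M-LPS-EV and 49.9, 13.5, 28.0 and 40.6 with M-EV. Cflar-205 had 1948 and 1819 counts in these groups.

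Shares of the Mlkl forms rested on few reads. Mlkl-202, with 464 codons, held 91.0%, 84.3% and 63.5% of Mlkl abundance with M-LPS-EV, against 17.1%, 94.6% and 0% with M-EV, where each library had 9 to 16 counts for the gene. Ripk1-201 and Ripk1-203, both of 656 codons, held 79.8% and 17.3% of Ripk1 abundance with M-LPS-EV and 82.6% and 16.4% with M-EV on average and were not called.

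**Figure D4:**
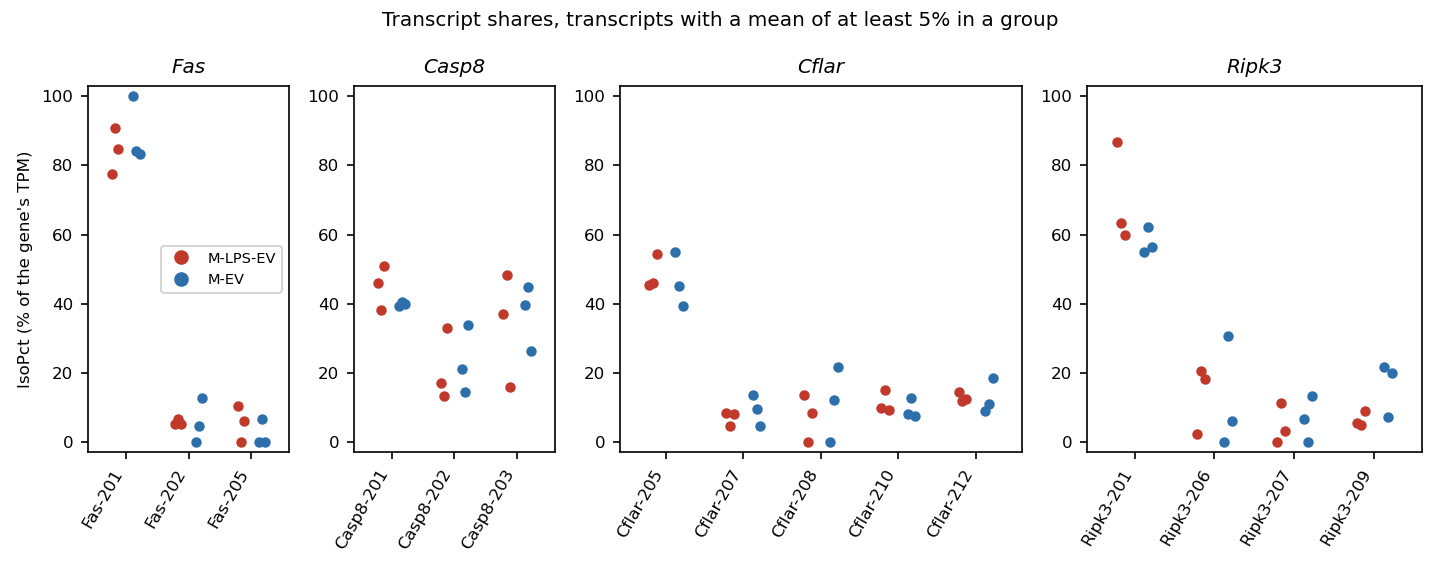
Share of each transcript in its gene's abundance (IsoPct, y axis, percent) for Fas, Casp8, Cflar and Ripk3 in the 3 M-LPS-EV (red) and 3 M-EV (blue) libraries, for transcripts with a mean of at least 5% in a group. Fas-201 and Ripk3-201 hold most of their genes, while the shares of Casp8-202 and Casp8-203 scatter within each group.

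Apart from Tnfsf12, the death ligand genes examined were nearly absent from the RNA of both groups. Of 6 ligand genes only Tnfsf12, which encodes TWEAK, had enough reads to be tested, and it was not called (log2 fold change 0.22, SE 0.15, edgeR adjusted p = 0.31). Fasl had 0 counts in all 6 libraries, and Tnfsf10, the gene of TRAIL, had 1 count in each group. Tnf had 7, 4 and 7 counts with M-LPS-EV, against 0, 0 and 3 counts with M-EV, a depth-scaled ratio of 6.53 with a 95% counting interval of 1.91 to 34.6 that covers counting error only. Among 10 other receptors and decoys of the family, 9 were tested, 3 rose and 1 fell (median log2 fold change 0.03). Of all tested genes 16.4% were higher and 15.2% lower. Edar, a death domain receptor of ectodermal development, had 7.70, 8.79 and 6.61 CPM with M-LPS-EV and 1.45, 1.13 and 0.798 CPM with M-EV (log2 fold change 2.76, SE 0.18, edgeR adjusted p = 5.3e-12). Eda2r, a related receptor, rose by 0.54 (SE 0.12) and Tnfrsf11b, which encodes the soluble decoy osteoprotegerin, by 0.27 (SE 0.03), while Tnfrsf12a, the TWEAK receptor, fell by 0.12 (SE 0.04), all on the log2 scale.

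All 21 adaptors, ubiquitin ligases and deubiquitinases of the receptor complexes were tested, of which 10 rose and 2 fell (median log2 fold change 0.12), where 16.4% of all tested genes were higher and 15.2% lower. The other 9, among them Xiap, Otulin, Rnf31 and Sharpin, were not called. Tnfaip3 encodes A20, an ubiquitin-editing enzyme that restrains RIPK1 signalling. It averaged 13.3 ± 1.24 CPM with M-LPS-EV and 2.79 ± 0.350 CPM with M-EV (SD, n = 3 each), without overlap (log2 fold change 2.25, SE 0.12, edgeR adjusted p = 4.3e-14). Birc3 encodes cIAP2, a ligase for RIPK1, and had 12.5, 14.7 and 11.1 CPM with M-LPS-EV and 5.10, 4.94 and 5.32 CPM with M-EV (log2 fold change 1.32, SE 0.11). Traf1, an adaptor of TNFR2, rose by 1.11 (SE 0.34) at 75 counts over the M-LPS-EV libraries and 37 over the M-EV libraries. It was not called without M-EV replicate 1 or 3 or M-LPS-EV replicate 1 (edgeR adjusted p up to 0.085). Like Mlkl, Traf1 passed the count filter only with the help of its M-LPS-EV libraries, having 10, 19 and 8 counts with M-EV. Its call is therefore a description. Rbck1 and Tab2, a subunit of the linear ubiquitin ligase and an adaptor of the kinase TAK1, fell by 0.10 (SE 0.04) and 0.07 (SE 0.02) on the log2 scale. Both calls ended when M-EV replicate 3 or M-LPS-EV replicate 1 was left out (edgeR adjusted p up to 0.16), and that of Rbck1 also when M-EV replicate 1 or M-LPS-EV replicate 3 was. Fadd, the adaptor that recruits caspase-8, had 13.5, 12.8 and 13.5 CPM with M-LPS-EV and 12.8, 10.7 and 9.84 CPM with M-EV. Its call (log2 fold change 0.25, SE 0.09, edgeR adjusted p = 0.033) ended in DESeq2 (adjusted p = 0.078) and when M-EV replicate 2 or 3 or M-LPS-EV replicate 1 or 3 was left out (adjusted p up to 0.19). Tradd, the adaptor of TNFR1, was not called (0.12, SE 0.10, edgeR adjusted p = 0.45).

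The next 3 lists are read against the 31.6% of all tested genes that were called. Of 9 tested partners and regulators of RIPK3 and MLKL 2 rose and 0 fell, at a median log2 fold change of 0.04. Itpk1, an inositol phosphate kinase that promotes MLKL activation, rose by 0.29 (SE 0.09) and the chaperone gene Hsp90aa1 by 0.08 (SE 0.02). Zbp1, a RIPK3-activating nucleic acid sensor, had 1 count with M-LPS-EV and 0 with M-EV. Of 13 tested BCL-2 family genes 3 rose and 1 fell (median 0.06). The BH3-only genes Bcl2l11 (BIM) and Bmf rose by 0.86 (SE 0.17) and 0.73 (SE 0.10) and the pore-forming Bax by 0.17 (SE 0.04), while the anti-apoptotic Bcl2 fell by 0.29 on the log2 scale (SE 0.06). The other 9, among them Mcl1, Bcl2l1, Bak1 and the BH3-only Hrk, were not called. Hrk had 25 counts over the M-LPS-EV libraries and 53 over the M-EV libraries (log2 fold change -0.97, SE 0.39, edgeR adjusted p = 0.058). Of 9 genes of downstream caspases and the apoptosome 1 rose and 1 fell (median 0.06). Casp6, an effector caspase, had 12.4, 11.8 and 11.7 CPM with M-LPS-EV, against 7.06, 8.21 and 6.52 CPM with M-EV (log2 fold change 0.72, SE 0.09, edgeR adjusted p = 1.1e-06). Cycs, the gene of cytochrome c, fell by 0.14 on the log2 scale (SE 0.03). Over the 6 lists 62 of 70 genes were tested, 19 rose and 5 fell, and 38 were not called. Over all tested genes 31.6% were called, made up of 16.4% higher and 15.2% lower. The share of list genes called higher lay above that of all tested genes, and the share called lower lay below it. No test of the lists was made, so these counts are a description and no result about the lists. With the effective length offset Fadd, Traf1, Tnfrsf12a, Rbck1, Tab2, Itpk1 and Hsp90aa1 were no longer called, and on both TPM scales Eda2r and Bcl2 were not. Itpk1 was also not called without M-EV replicate 1 or M-LPS-EV replicate 3, nor Tnfrsf12a without M-EV replicate 2 or M-LPS-EV replicate 1 or 3.

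**Figure D5:**
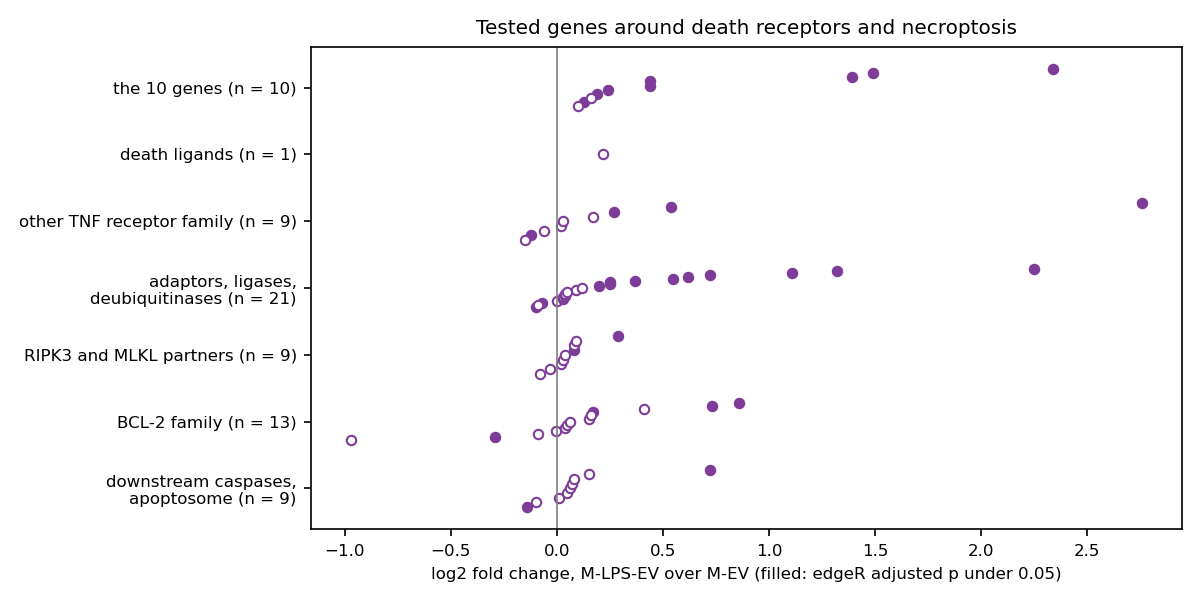
Log2 fold change of M-LPS-EV over M-EV (x axis) for the tested genes among the 10 and in 6 lists of related genes (y axis, with the number tested); filled points have an edgeR adjusted p under 0.05. The farthest points right are Edar, Fas and Tnfaip3, and most genes of the lower lists lie close to 0.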

How the data were processed

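Titles of the samples gave the groups of the 6 libraries. The build mm10 and the tools RSEM, STAR and DESeq2 are named per the submitters' processing notes. Their versions, annotation and strand setting are not given in the sources used. The authors deposited for each transcript an RSEM expected count, which is estimated and need not be whole, a TPM scaled by effective length, and the percent of the gene's abundance (IsoPct), per the file headers. Symbols and coordinates come from GENCODE M21 (GRCm38, the build mm10), which held 99.14% of the deposited transcript identifiers.

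Expected counts and TPM were summed per gene, and the counts were rounded. Genes passing filterByExpr (minimum count 10, minimum total 15) were scaled by TMM and tested in edgeR 4.0.16 (glmQLFit, glmQLFTest, R 4.3.3) with group as the only term. A gene was called at a two-sided Benjamini-Hochberg p below 0.05, adjusted over every gene tested. CPM use TMM-scaled library sizes, and an SE is the absolute log2 fold change over the root of the F statistic, from which normal 95% intervals were made. Transcripts were tested alike; RSEM's uncertainty in dividing reads is not modelled, so those p-values may be too small. Ratios were compared by exact permutation of libraries (scipy 1.17.1). The main edgeR gene fit, DESeq2 and limma-trend with a pseudocount of 1 were run on simulated gene counts with a single fixed dispersion. The other fits and the ratio tests were not.

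The 10 genes, the lists and the rule for named genes (up to 3 risers and 2 fallers of each list, Tnf, Fasl, Tnfsf10, Fadd and Tradd, and all 10 genes) were chosen with earlier results of these data known. Zbp1, Mcl1, Bcl2l1, Bak1, Hrk and the markers were named after their values were seen. Alternatives were upper-quartile and RLE scaling, a mean count minimum of 50 or none, an effective length offset, the replicate number as a block, DESeq2 1.42.0, limma-trend (limma 3.58.1) on log2(TPM + 1) and log2(TPM + 0.1), and each library left out in turn.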

Additional observations from a re-analysis of the deposited data

How the results depend on the processing

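Among the 10 genes, no direction changed under any of the alternatives, and Fas, Bid, Tnfrsf1a and Tnfrsf1b were called in every fit. The number called higher was 7 to 9 with 1 library left out, and 4 with the effective length offset and on both TPM scales. The calls that ended there were Tnfrsf10b (0.13 with the offset, 0.11 on both TPM scales), Cflar (0.12, and 0.10 and 0.11 on log2(TPM + 1) and log2(TPM + 0.1)), Ripk3 (0.31, 0.28 and 0.29) and Mlkl (1.20, 0.58 and 1.10), with adjusted p of 0.085 to 0.14, 0.57 to 0.68, 0.12 to 0.16 and 0.059 to 0.075. The pseudocount lowers the last by construction. Mlkl did not reach a mean count of 50 and has no value in that fit. With 1 library left out, log2 fold changes were 0.12 to 0.15 for Tnfrsf10b and 0.08 to 0.13 for Ripk1.

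Genes called over the whole table, 2397 higher and 2217 lower, came to 1539 and 1329 with the offset, 1280 and 1342 on log2(TPM + 1) and 1284 and 1335 on log2(TPM + 0.1). Of the 62 tested genes of the 6 lists, 19 were higher and 5 lower. On both TPM scales 12 were higher and 3 lower, with the offset 2 were lower, and 2 to 5 were lower with 1 library left out (3 when M-EV replicate 3 and 2 when M-LPS-EV replicate 1 was left out). Transcripts called higher, 5 in the report, were 3 without a count filter, 2 with the replicate block and 2 to 3 with 1 library left out, while all transcripts called, 1658, were 524 with the block. The log2 difference of the Cflar to Casp8 ratio, -0.0031, was 0.03 with ratios of counts and -0.18 to 0.11 with 1 library left out. Values of uncalled transcripts changed sign for Casp8-202 (-0.47 to 0.36 with 1 library left out), Casp8-203 (-0.36 to 0.34, -0.10 with the replicate block and -0.0024 without a count filter) and Cflar-212 (-0.19 to 0.62). Apart from the offset and pseudocount themselves, the cause was not tested.

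Same-numbered libraries did not deviate together (correlations of deviations 0.028, -0.044 and -0.019), so the numbers were not taken to pair the samples. With the replicate block 8 of the 10 genes were called, as without it, Rbck1 was not (adjusted p = 0.053), and 4 genes of the 6 lists were lower. At this depth Mlkl, Traf1 and the ligands other than Tnfsf12 rest on few reads. Ripk1, with a difference of 0.10 on the log2 scale, was called only when M-LPS-EV replicate 1 was left out. The call of Tnfrsf10b, at 0.13, ended without M-EV replicate 1, with the offset and on both TPM scales.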
